A study of Populus ussuriensis with 18 samples.

Results

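The loci described here are those of the poplar Populus ussuriensis whose transcript level after cutting was highest at 2 h and moved over a range of at least 3.5 on the log2 scale, which is 11.3-fold. For each of 36385 listed loci, the FPKM of all its transcripts was summed (FPKM scales reads to the length of the transcript and to the depth of the library). The values of both libraries of a time point were averaged, and 1 was added before the log2 was taken. The members were chosen by these levels at the 8 time points from 0.5 h to 96 h, and 0 h had no part in the choice. Of 3958 loci highest at 2 h, 187 met the range, 0.514% of the listed loci. All 187 passed the filter used for testing (at least 1 FPKM in at least 2 libraries), each of them through its own level at 2 h.

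RNA was sequenced from the lowest 0.5 cm of stem pieces cut from plants 2 weeks old, which had been kept in sterile culture with 20 g/L sucrose, at 25 °C and under days of 16 h light and 8 h dark. Samples were taken at 0, 0.5, 1, 2, 6, 12, 24, 48 and 96 h after cutting, with 2 libraries each, 18 in all. By their labels, all groups share this material and differ only in time, but the tables of 0 h also differ in kind, as described below. The labels name no genotype, and leave unsaid whether both libraries of a time came from separate plants, so p-values speak of the variation among these libraries alone, and this may be technical. No uncut stems of the later times are among the libraries, so a response to cutting and a change with the time of day cannot be told apart.

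Cutting a stem wounds it and severs its supply of water, minerals and some hormones from the root. In plants generally, wounding sets off ion and calcium signals within minutes, then the synthesis of the hormone jasmonate, and several waves of transient transcription follow each other before slower programmes of defence, wall repair and regrowth take over. Cuttings of poplar go on to form adventitious roots, which are roots arising from tissue other than a root, near the cut end. The first hours after cutting are the window in which transient wound transcripts are known to come and go.

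The files give identifiers without gene names, and no gene annotation was used here. The loci are therefore named by identifier only, no role is given to any of them, the tissue was not checked against marker genes, and no sequence is shown. Each table ends within the identifiers of prefix 17, and loci past that end were not analysed here. The largest read totals that match the steps of the values were 21914571 and 25026198 at 0 h and between 28460172 and 30651830 at later times. Per library at 2 h, a member held between 91 and 86585 reads, with a median of 3226.5 reads. The tables of 0 h differ in kind from the later ones. Transcript lengths were fitted to the libraries after cutting. That all values searched there were whole reads within 0.01 reads thus follows from the fit. With these lengths, 38.7% and 37.9% of the values in the 0 h libraries were whole, so the totals of 0 h are less sure. For the 56 members with more than 1 transcript, the leading one made up a median of 93.9% and 95.4% of the locus in the 0 h libraries, and of 46.9% to 53.7% in later ones. Every value set against 0 h below carries that difference.

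Of the listed FPKM, the 187 loci held 0.314% and 0.405% in the libraries of 0 h. They held 1.03% and 1.04% in those of 0.5 h, 3.01% and 3.5% in those of 1 h, and most in those of 2 h, with 5.78% and 5.77%. Their share dropped to 1.33% and 1.21% in the libraries of 6 h. It was 0.567% and 0.528% in those of 12 h, 0.466% and 0.412% in those of 24 h, 0.359% and 0.330% in those of 48 h, and 0.276% and 0.256% in those of 96 h. The height at 2 h follows from the rule and is a description. In bulk tissue, more cells of a type and more RNA per cell cannot be told apart. Both libraries of 96 h lay below both of 0 h, though the rule used the 96 h levels and favoured members with a low one.

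**Figure D1:**
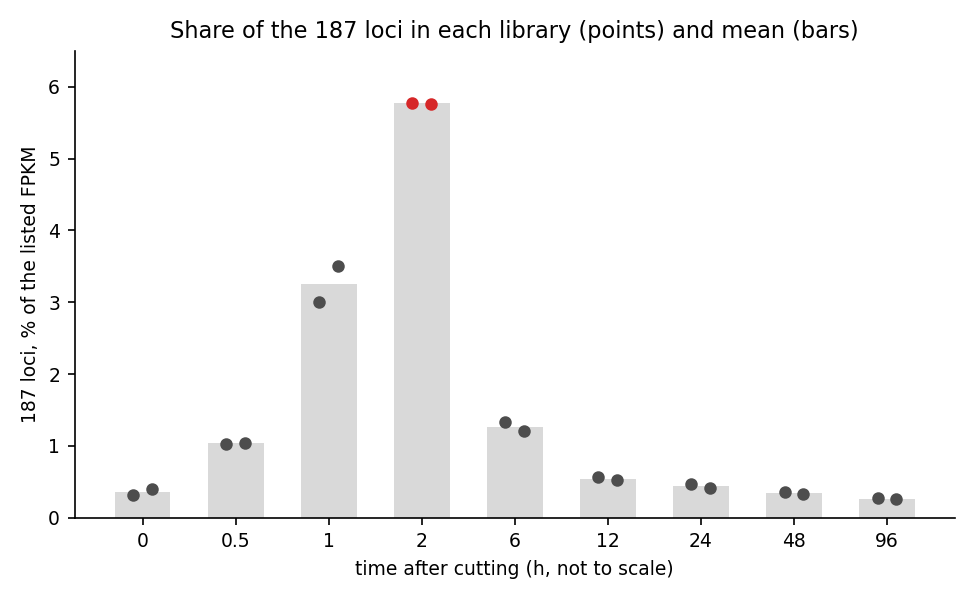
Share of the 187 loci in the FPKM of all listed transcripts (%, vertical axis) by time after cutting (h, not to scale), with 1 point per library and bars for the mean of 2 libraries. The 2 h libraries stand at 5.78% and 5.77%, and the 96 h libraries at 0.276% and 0.256%.

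The members differed widely in level. Their mean at 2 h ran from 11.2 to 2451 FPKM with a median of 65.4 and quartiles of 32.1 and 184 FPKM. The range chosen for was a median of 4.39 on the log2 scale, 20.9-fold, and at most 9.62, and 27 members spanned at least 64-fold. Just inside the threshold lay Potri.005G073300, with a range of 3.52, 463 FPKM at 2 h and 39.5 FPKM at its lowest time. Just outside lay Potri.004G206700, with 3.49, 251 FPKM at 2 h and 21.3 FPKM at its lowest. Both lie close to the threshold, and the border of the group is a matter of degree.

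The peak rested on both 2 h libraries in most members. In 145 of 187 (77.5%), each 2 h library was above all 14 other libraries after cutting. The libraries at 2 h differed by a median of 0.13 on the log2 scale. The widest gap was that of Potri.008G210400, with 5.60 and 21.0 FPKM at 2 h against 11.1 and 8.98 FPKM at 1 h, so that its maximum rests on replicate 2 alone. Replicate 2 held 344 reads at 2 h and replicate 1 held 91. Applied to the replicate 1 libraries alone, the rule took 216 loci, of which 173 were also highest at 2 h in replicate 2. Applied to replicate 2 alone it took 181, of which 158 were also highest at 2 h in replicate 1. The rule took 140 loci in each replicate alone, all of them among the 187.

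The members were on their way up at 0.5 h and 1 h and mostly down again by 6 h. As a share of the 2 h level, their median stood at 10.9% at 0.5 h and 49.7% at 1 h. It was 16.0% by 6 h and 8.05% by 12 h, then 5.82% by 24 h, 4.69% by 48 h and 3.34% by 96 h. At 0.5 h, 91 members were still under 10% of their 2 h level and 17 already over 50%. At 1 h, 13 were under 10% and 93 over 50%. After the peak, 74 members were below 10% of the 2 h level by 6 h. A further 36 first fell below it by 12 h, 18 by 24 h, 23 by 48 h and 27 by 96 h, and 9 stayed above it throughout. The lowest time point was 96 h in 85 members, 0.5 h in 33, 48 h in 29, 6, 12 or 24 h in 39 and 1 h in 1.

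Which time came second divides the members into courses. In 135 (72.2%) it was 1 h, in 37 (19.8%) 6 h, and in 15 another time. The margin of 2 h over the second time had a median of 0.68 on the log2 scale. It was at least 1 in 68 members and below 0.2 in 40, whose peak at 2 h is hardly set apart from the second time. Both 2 h libraries were above both 1 h libraries in 105 of the 135, and above both 6 h libraries in 30 of the 37. The members second at 1 h stood at a median of 60.8% of their 2 h level at 1 h and 9.77% at 6 h. Those second at 6 h stood at 23.3% at 1 h and 65.9% at 6 h, with 20.7% left by 12 h, against 5.81% in the members second at 1 h. These classes were cut from the same values they describe, and their differences were given no test.

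**Figure D2:**
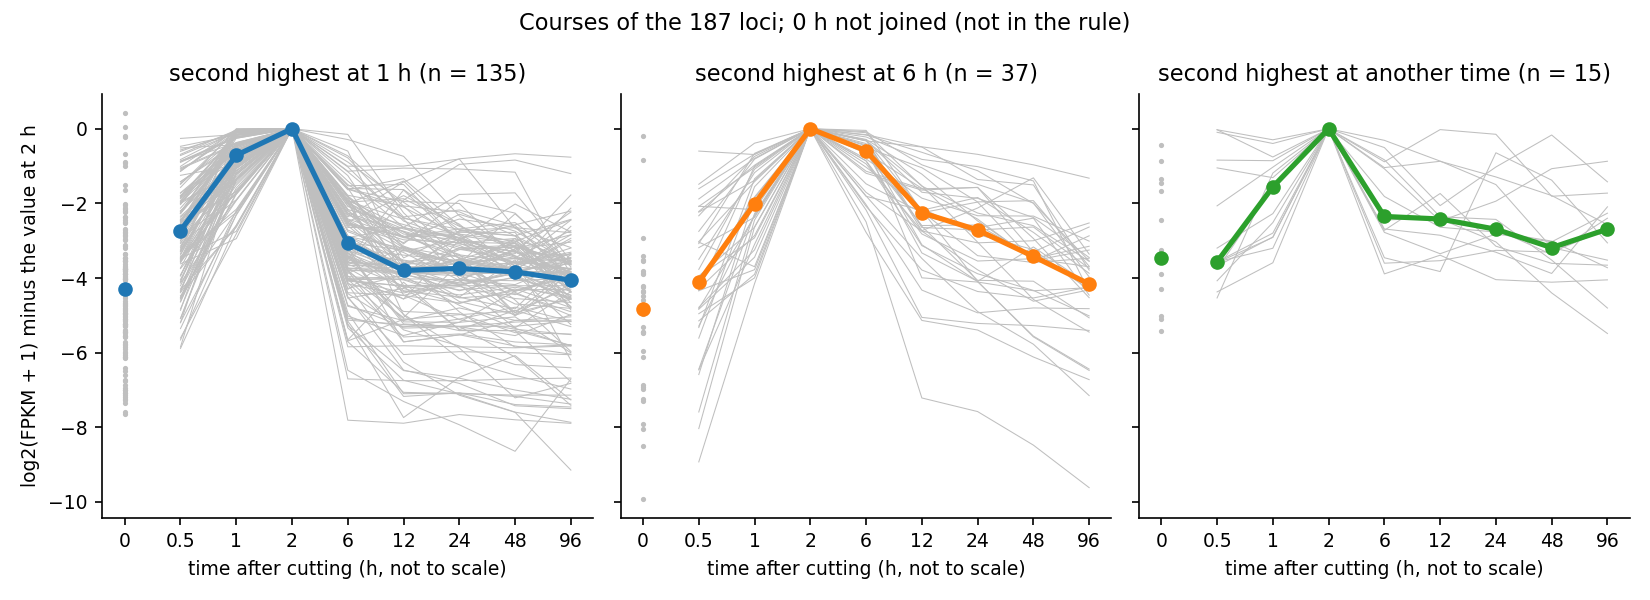
Courses of the 187 loci as log2(FPKM + 1) minus the value at 2 h (vertical axis) by time after cutting (h, not to scale), split by the time of the second highest mean; grey lines are loci, coloured lines medians, and 0 h is shown unjoined because it was not in the rule. The 135 loci second at 1 h have lost a median of 3.07 by 6 h, the 37 loci second at 6 h a median of 0.59.

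The highest level belonged to Potri.004G102500, which has 3 listed transcripts. It held 63.1 and 110.0 FPKM at 0 h, 637 and 730.2 FPKM at 0.5 h, 2018 and 2326 FPKM at 1 h and 2504 and 2398 FPKM at 2 h. At 6 h it was at 84.4 and 98.9 FPKM, and no later library exceeded 98.9 FPKM. By 6 h it was thus within the span of its 0 h libraries, and some later libraries lay just below that span. Its gap between 1 h and 2 h was small, with libraries that come close, and its gap between 2 h and 6 h was wide.

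Potri.002G249200 followed nearly the same course at a lower level, with 1071 and 1268 FPKM at 1 h, 1397 and 1241 FPKM at 2 h and 141 and 130.3 FPKM at 6 h. The 1 h and 2 h libraries of this locus overlapped. Unlike the locus before it, it was lowest at 48 h, with 38.1 and 46.3 FPKM, and stood at 97.5 and 99.7 FPKM at 96 h.

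Potri.016G117100 went on declining to the last time point. It had 45.9 and 48.4 FPKM at 0.5 h, 287 and 364 FPKM at 1 h, 1079.7 and 1123 FPKM at 2 h and 52.0 and 68.7 FPKM at 6 h. It then held 10.7 and 16.3 FPKM at 12 h, 6.68 and 2.71 FPKM at 48 h and 1.28 and 0.617 FPKM at 96 h. No library of another time point came within reach of those at 2 h.

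The widest range, 9.62 on the log2 scale, was that of Potri.006G101100, with 1 transcript of 1605 bp. It was listed at 0 in both 0 h libraries and held 0.946 and 1.004 FPKM at 0.5 h, 40.2 and 66.0 FPKM at 1 h, 979.5 and 939.6 FPKM at 2 h and 183 and 156 FPKM at 6 h. It then held 4.95 and 6.00 FPKM at 12 h and 0.325 and 0.124 FPKM at 96 h. Behind the 2 h values stood 46085 and 44608 reads. The next listed locus, Potri.006G101200, was also a member, with 113 and 160.1 FPKM at 1 h, 254 and 218 FPKM at 2 h and 25.5 and 18.7 FPKM at 6 h. It thus held a larger part of its 2 h level at 1 h than its neighbour did.

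Potri.008G086700 stands for the slower course. It had 3.503 and 3.77 FPKM at 0.5 h, 158 and 232 FPKM at 1 h, 1237 and 1190.0 FPKM at 2 h and still 990.4 and 972 FPKM at 6 h. It declined through 300.3 and 231 FPKM at 12 h, 77.5 and 62.4 FPKM at 24 h and 21.7 and 27.9 FPKM at 48 h to 13.1 and 12.9 FPKM at 96 h. Potri.011G089700 had the same kind of course, with 279 and 250.4 FPKM at 2 h, 219 and 166 FPKM at 6 h and 2.07 and 1.90 FPKM at 96 h. Among the 10 members of widest range, these and Potri.006G101100 were second at 6 h and the other 7 second at 1 h.

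Potri.013G157300 was seen at hardly any other time. It held 11.5 and 11.0 FPKM at 2 h, from 595 and 575 reads, and 0.393 and 0.796 FPKM at 1 h. In the other 14 libraries, 0 h included, it was at 0 in 12 and at no more than 0.0376 FPKM in 2. It had the widest margin over its second time, 2.95 on the log2 scale. It was named for that after its values were seen.

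In 4 members a second, later height followed. Their level at 24, 48 or 96 h was at least 2 on the log2 scale above the lower of 6 h and 12 h. Potri.008G151100 went down to 3.95 and 3.20 FPKM at 12 h, stood at 38.2 and 42.9 FPKM at 24 h and was back at 8.05 and 5.54 FPKM at 96 h. Potri.011G094400 and Potri.003G200600 were highest among the late times at 48 h, with 60.5 and 44.9 FPKM and with 36.2 and 33.1 FPKM. Potri.009G072900, with 59.4 and 18.3 FPKM at 48 h, rests on 1 library there. These 4 were picked for their late values after those were seen, and no test is given.

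**Figure D3:**
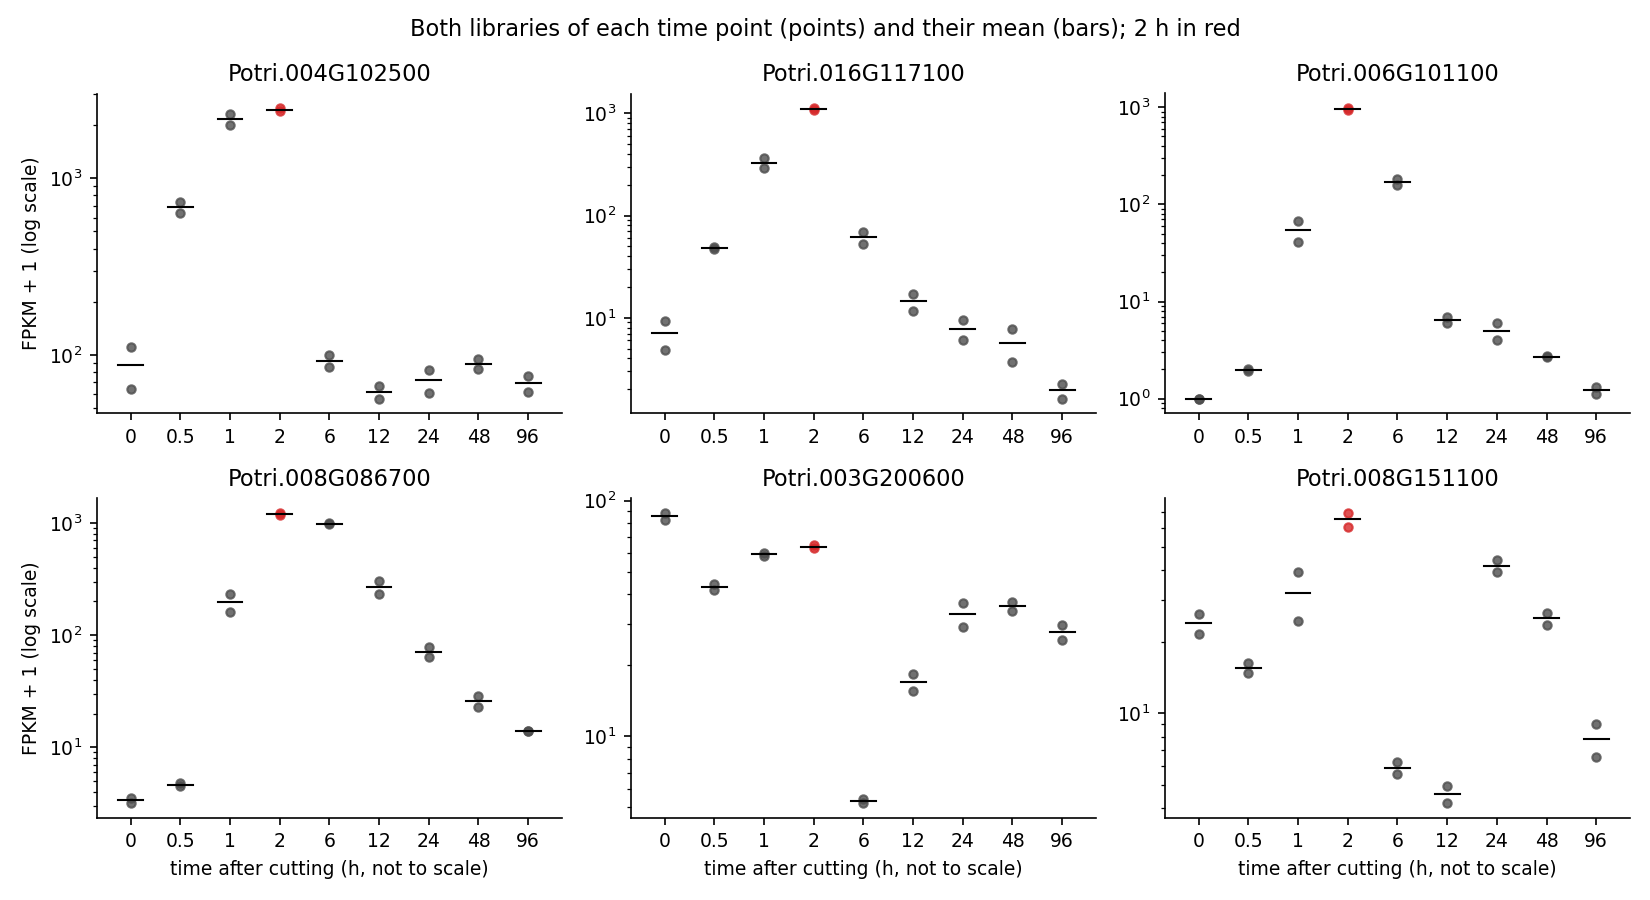
Level of 6 members as FPKM + 1 (log scale, each panel with its own range) by time after cutting (h, not to scale), with points for both libraries and bars for their mean, 2 h in red. Potri.004G102500 is back near its 0 h level at 6 h, Potri.008G086700 still holds 990.4 and 972 FPKM then, and Potri.008G151100 rises again to 38.2 and 42.9 FPKM at 24 h.

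Between neighbouring time points after cutting, the rule itself sets most of what is found, and the counts here are given as description. Calls rest on limma, fitted to all 26765 loci tested, with a Benjamini-Hochberg adjusted p under 0.05. At 1 h against 0.5 h, 163 members were called (44.2% of all loci tested were), 161 of them higher and 2 lower (13.9% and 30.3% of all loci). Fewer than 2 were lower when 0.5 h replicate 1 or either 1 h library was left out. At 2 h against 1 h, 127 were called, all higher (36.4% of all loci in either direction, 20.8% higher and 15.6% lower). At 6 h against 2 h, 161 were called, all lower (52.5% of all loci in either direction, 34.2% higher and 18.3% lower). That these last calls lie on a single side is fixed by the choice of loci that are highest at 2 h.

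The decline of the members continued in smaller steps. At 12 h against 6 h, 6 were higher and 100 lower (14.3% and 9.61% of all loci, 23.9% in either direction), with a median log2 fold change of -0.67 in the members and 0.05 over all loci. At 24 h against 12 h, 13 were higher and 40 lower (8.80% and 10.6%, 19.4% in either direction). At 48 h against 24 h, 7 were higher and 32 lower (2.41% and 2.66%, 5.07% in either direction). At 96 h against 48 h, 23 were higher and 63 lower (18.7% and 9.78%, 28.5% in either direction). Leaving out 1 library moved several of these counts by over 1.5 times. At 12 h against 6 h, 2 were higher without 12 h replicate 2. For 24 h against 12 h, 53 members were called with all libraries, 35 when 12 h replicate 2 was left out and 30 when 24 h replicate 2 was. The higher ones numbered 7 without 12 h replicate 2 or 24 h replicate 1 and 8 without 24 h replicate 2, and the lower ones 22 without the last of these. For 48 h against 24 h, 39 were called with all libraries. Leaving out 24 h replicate 1 or 48 h replicate 2 gave 20, and leaving out 24 h replicate 2 or 48 h replicate 1 gave 23. With any of these 4 libraries left out, between 1 and 3 were higher. The lower ones then numbered 17 without 24 h replicate 1, 18 without 48 h replicate 2, and 21 or 22 without the others. At 96 h against 48 h, 15 were higher without 48 h replicate 1 or 96 h replicate 1, and 40 were lower without 96 h replicate 2.

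The 2 libraries of 1 h differed in the members more than over all loci. In 159 of the 187 members replicate 2 of 1 h was above replicate 1, by a median of 0.24 on the log2 scale, while 43.6% of all loci tested were higher in that replicate, with a median of -0.03. At 0.5 h replicate 2 was above replicate 1 in 114 members, at 2 h in 87, and at 6 to 96 h in between 70 and 84. The rule used only the mean of both libraries. Whether the moment of sampling differed between the 1 h libraries was not tested. Without 1 h replicate 1, 101 members were higher at 2 h than at 1 h, and without replicate 2, 119 were.

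The level at 0 h took no part in the choice. The members' median was 65.4 FPKM at 2 h and 2.30 FPKM at 96 h, against 1.35 FPKM at 0 h. In 78 members the 0 h mean lay below every later mean, in 107 between the lowest and the highest, and in 2 above the 2 h mean. Listed at 0 in both 0 h libraries were 23 members (12.3%), against 6.68% of all loci tested. Both 2 h libraries were above both 0 h libraries in 183 members. Neither this nor the place of the 0 h mean was counted over all loci tested. At 2 h against 0 h, 181 members were called higher and 1 lower by limma, where 32.7% and 36.1% of all loci tested were (68.8% in either direction), but the 2 h level is what the rule chose.

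At 0.5 h most members were already above 0 h. Of 187, 127 (67.9%) were higher and 9 (4.81%) lower at 0.5 h than at 0 h, where 26.0% and 23.7% of all loci tested were called in these directions by limma (49.7% in either). The median log2 fold change was 1.15 in the members and -0.01 over all loci. Both 0.5 h libraries were above both 0 h libraries in 141 members, which was not counted over all loci tested. Quantile normalization, which moved the median of all loci to -0.15, gave 118 higher and 15 lower. Among the 131 members with 1 listed transcript, 93 were higher and 6 lower. The rule used the 0.5 h levels, though not those of 0 h, which also bears on the tests of single members at 0.5 h below.

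At 96 h members stood on both sides of 0 h, as did the loci tested at large. The rule used the 96 h levels, though not those of 0 h, and 96 h was the lowest later time in 85 members. Their 96 h levels were thus in part chosen to be low, which also bears on the tests of single members at 96 h below. By limma 64 (34.2%) were higher and 52 (27.8%) lower at 96 h than at 0 h. Of all loci tested, 42.4% were higher and 22.5% lower. In either direction 62% of the members were called, close to the 65.0% of all loci tested. The median log2 fold change was 0.11 in the members and 0.23 over all loci. The prevailing direction depends on the scaling: with quantile normalization 43 were higher and 69 lower, with a median of -0.17 in the members and -0.02 over all loci. Without 0 h replicate 1 neither direction prevailed, with 57 higher and 58 lower and a median of 0.08 in the members. The 0 h mean lay within 1 of the 96 h mean on the log2 scale in 103 members, which was not counted over all loci tested.

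**Figure D4:**
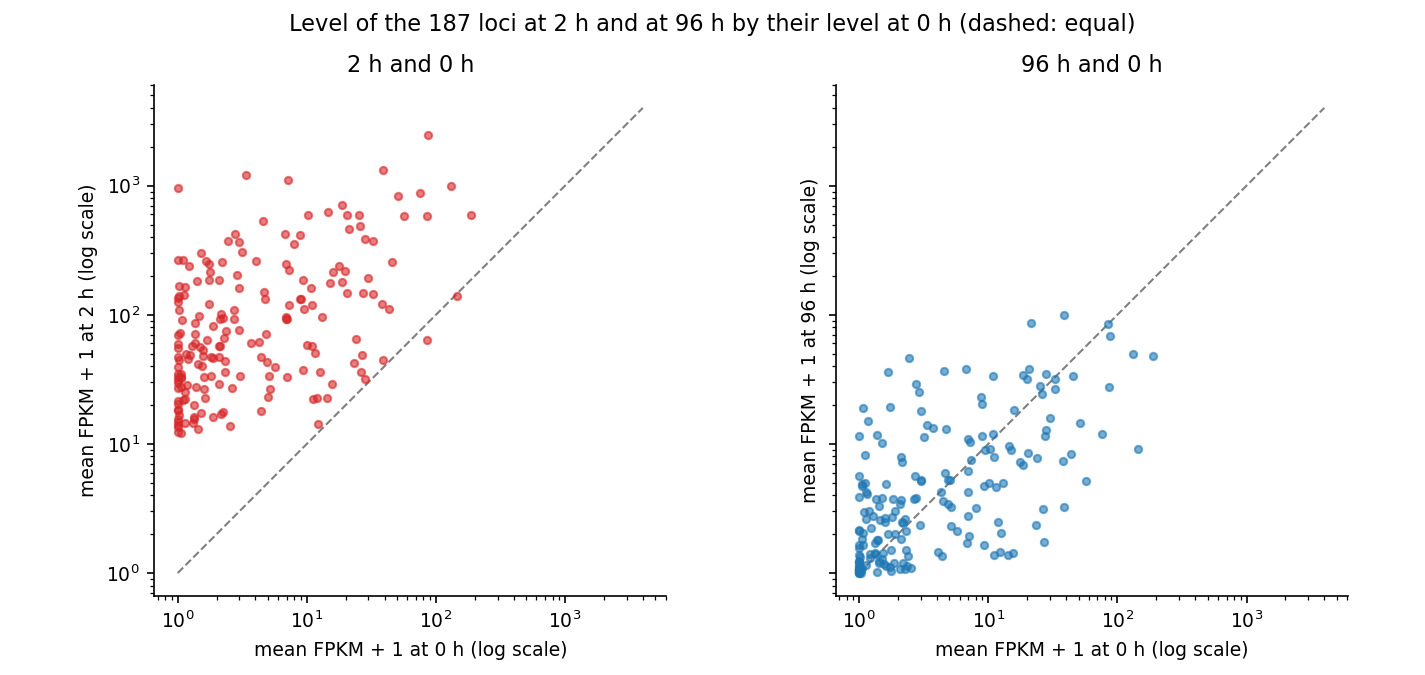
Mean FPKM + 1 of each of the 187 loci at 2 h (left) and at 96 h (right) on the vertical axes against its mean FPKM + 1 at 0 h on the horizontal axes, all on log scales, with a dashed line of equal levels. At 2 h all but 2 loci lie above the line, and at 96 h loci lie on both sides of it.

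Single members show both sides. Potri.004G102500 was higher at 0.5 h than at 0 h (log2 fold change 3.02, SE 0.21, limma adjusted p 4.06e-08). At 96 h, with 75.1 and 60.4 FPKM against 63.1 and 110.0 FPKM at 0 h, it had a log2 fold change of -0.30 (SE 0.21, limma adjusted p 0.227). That value was -0.70 without 0 h replicate 1, where it was called lower, and 0.09 without 0 h replicate 2. Potri.002G249200 was higher than its 37.4 and 37.8 FPKM of 0 h at 0.5 h, by 2.61 on the log2 scale, and at 96 h, by 1.37 (SE 0.15 each, limma adjusted p 3.24e-09 and 1.36e-06). Potri.016G117100 rose by 2.84 on the log2 scale at 0.5 h (SE 0.36, limma adjusted p 2.92e-05) and fell by 1.81 at 96 h (SE 0.36, limma adjusted p 0.000692) relative to 3.86 and 8.34 FPKM at 0 h.

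In 2 members the 0 h mean lay above the 2 h mean. Potri.003G200600 held 61.7 and 63.8 FPKM at 2 h and 43.1 and 40.8 FPKM at 0.5 h, against 87.9 and 81.6 FPKM at 0 h. It was lowest at 6 h, with 4.44 and 4.20 FPKM, and held 24.7 and 28.7 FPKM at 96 h. It has 8 listed transcripts, and so belongs to the 56 members with more than 1 listed transcript. Potri.008G117100 held 129.8 and 148 FPKM at 2 h against 103 and 184 FPKM at 0 h, which overlap. On the log2 scale of the fit, its levels at 2 h and 0 h were about equal (log2 fold change 0.0093). At 96 h it held 9.08 and 7.05 FPKM. Since 2 h is the highest later time by the rule, a 0 h mean above it places every later mean of both loci below 0 h, and no test is given.

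Potri.006G223900 was named after its values were seen, since its margin over its second time was the smallest of all members, 0.0035 on the log2 scale. It held 505 and 669 FPKM at 2 h and 549.6 and 621 FPKM at 1 h, which overlap. It dipped first, with 67.1 and 96.1 FPKM at 0.5 h against 139 and 235 FPKM at 0 h (log2 fold change -1.16, SE 0.24, limma adjusted p 0.001003). At 96 h it held 47.6 and 46.4 FPKM and was lower than at 0 h (log2 fold change -1.92, SE 0.24, limma adjusted p 6.32e-06). The rule used its levels at 0.5 h and 96 h, and the locus was picked afterwards, so both p-values are description only.

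The libraries of 0 h were themselves unlike for some members. Replicate 2 was at least 1 above replicate 1 on the log2 scale in 16 members and replicate 1 above replicate 2 in 4, where 1.71% and 0.646% of all loci tested were so. Of the 12 members highest at 2 h, 4 had such a gap in that direction. Potri.016G112400 had 829 and 919 FPKM at 2 h against 27.9 and 121 FPKM at 0 h, and Potri.004G208500 had 786 and 863 FPKM at 2 h against 19.4 and 81.1 FPKM at 0 h. Potri.001G335300 had 601 and 577 FPKM at 2 h against 6.92 and 32.2 FPKM at 0 h. Potri.016G089400 had 581 and 594 FPKM at 2 h against 10.6 and 38.1 FPKM at 0 h. Over all members the median difference between the 0 h libraries was 0.02. Without 0 h replicate 1, 122 members were higher at 0.5 h than at 0 h, and without replicate 2, 117 were.

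The listed order of the identifiers, which the rule did not use, places some members side by side. In 17 members (9.09%) the next listed locus on at least 1 side was also a member. Members make up 0.514% of listed loci, but that is the share for 1 locus, while a locus has neighbours on 2 sides. The share with a member beside them was not counted for other loci. They form 6 runs, of which 4 hold 2 loci. A further run holds 3 and the longest 6. Near-identical copies can share reads, and neighbouring loci are often such copies. How alike these are was not tested, so their separate levels are uncertain.

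The longest run goes from Potri.002G150100 to Potri.002G150600, without a gap in the list. At 2 h its members held 70.5 and 68.1 FPKM (Potri.002G150100), 181 and 187 FPKM (Potri.002G150200), 13.6 and 14.2 FPKM (Potri.002G150300), 195 and 177 FPKM (Potri.002G150400), 69.9 and 77.6 FPKM (Potri.002G150500) and 62.3 and 57.1 FPKM (Potri.002G150600). Together they took 30758 and 30469 reads there. All 6 were second at 1 h. The first 5 have leading transcripts of 1733 to 1985 bp and a margin of 1.46 to 2.64 over 1 h on the log2 scale, and were lowest at 96 h.

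The sixth, Potri.002G150600, stands apart in the run. Its transcript is 1172 bp long, its margin over 1 h was 0.44, and it was lowest at 12 h. It held 13.0 and 11.3 FPKM at 96 h against 1.40 and 4.02 FPKM at 0 h (log2 fold change 1.92, SE 0.23, limma adjusted p 5.26e-06). Potri.002G150400 held 0.0329 and 0.10 FPKM at 96 h against 1.17 and 0.971 FPKM at 0 h (log2 fold change -0.96, SE 0.19, limma adjusted p 0.000402).

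Neither flanking locus met the rule. The locus listed before it, Potri.002G150000, had 23.3 and 21.9 FPKM at 2 h and between 8.25 and 13.2 FPKM in the other 14 libraries after cutting, so it was highest at 2 h as well but in a far smaller range. The locus listed after it, Potri.002G150700, held between 35.0 and 45.8 FPKM in all 16 libraries after cutting.

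**Figure D5:**
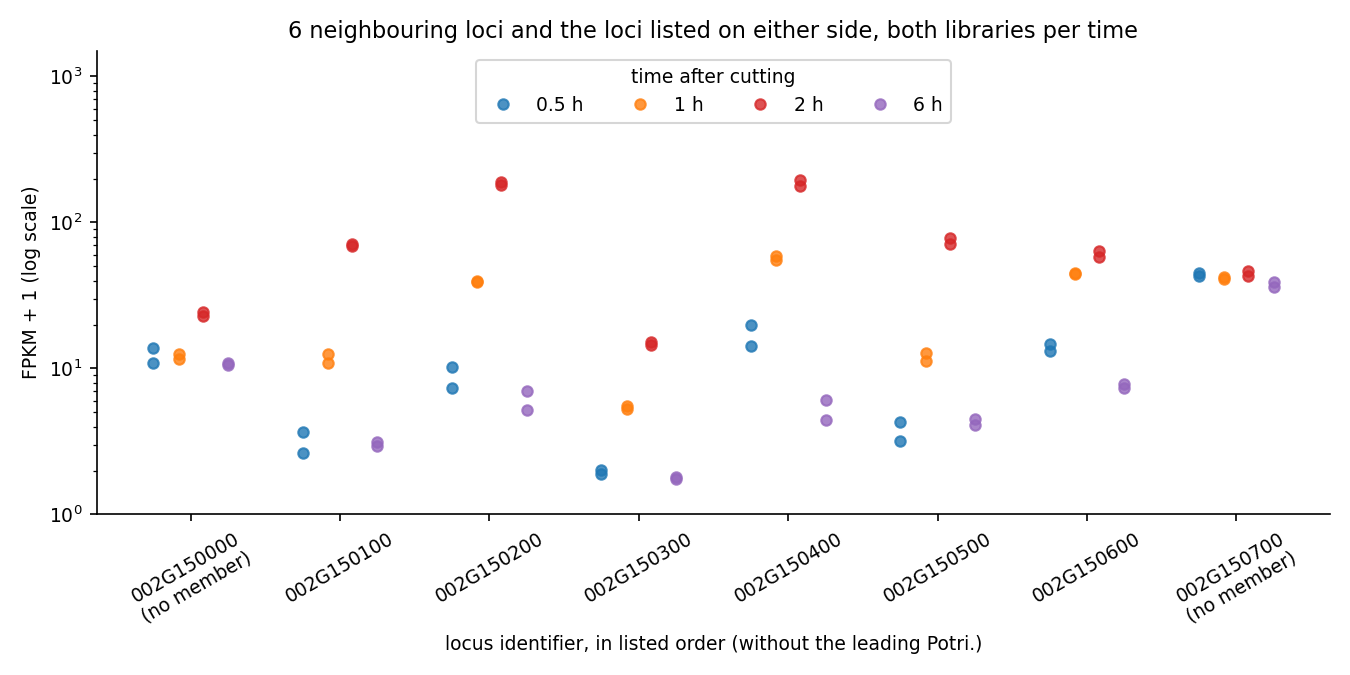
FPKM + 1 (log scale, vertical axis) in both libraries of 0.5, 1, 2 and 6 h for the 6 neighbouring members and the locus listed on either side (horizontal axis, in listed order). All 6 members are highest at 2 h, from 13.6 to 195 FPKM, while the locus after them holds between 35.0 and 45.8 FPKM throughout.

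The run of 3, from Potri.011G025900 to Potri.011G026100, had another course. It held 72.8 and 104 FPKM at 1 h, 259.8 and 263 FPKM at 2 h and 109 and 77.6 FPKM at 6 h in Potri.011G025900. In Potri.011G026000 it held 46.5 and 51.3 FPKM at 2 h and 42.7 and 53.4 FPKM at 12 h, which overlap, and in Potri.011G026100 117 and 122 FPKM at 2 h and 31.7 and 43.5 FPKM at 12 h. All 3 were lowest at 0.5 h and remained above 0 h at 96 h, in Potri.011G025900 with 40.1 and 29.7 FPKM against 1.02 and 0.294 FPKM at 0 h (log2 fold change 4.46, SE 0.28, limma adjusted p 8.66e-09). The locus listed next, Potri.011G026200, is no member. It held 10.03 and 11.2 FPKM at 2 h and was highest at 24 h, with 82.4 and 60.3 FPKM.

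The members also differed from the loci tested in how they are listed. A single transcript was listed for 131 of them (70.1%), against 53.7% of all loci tested. Their leading transcript had a median length of 1388 bp, from 333 to 3920 bp, against 1591 bp over all loci tested. Of the tested loci 0.699% were members, and by identifier prefix the share ran from 0.223% in prefix 17, whose list is incomplete, and 0.358% in prefix 3 to 1.41% in prefix 11. These shares were given no test. The spread between libraries of a time point, as the residual SD on the log2 scale, had a median of 0.24 in the members and 0.16 over all loci tested.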

How the data were processed

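RNA-seq of 18 libraries was deposited by the authors as separate tables of FPKM by transcript, named so per the file headers of the 0 h tables and taken as the same unit in the others, which hold the same identifiers. Per the submitters' processing notes, Bowtie2 2.2.3 and HISAT2 2.1.0 were used, with no role stated. Genome build, annotation and quantifier: not given in the sources used here. Each table lists 65535 transcripts. The deposited FPKM were summed per locus and analysed as log2(FPKM + 1), so fold changes understate the change of low loci. All 26765 loci with at least 1 FPKM in at least 2 libraries were fitted over 18 libraries with limma 3.58.1 in R 4.3.3. The fit used 1 mean per time point, an intensity trend and robust variance, with two-sided tests and Benjamini-Hochberg adjustment within a comparison. The procedure was also run on simulated data, which left out the difference in kind between the 0 h tables and the later ones. They also gave all loci the same added noise between libraries. The run therefore cannot give the error rate for the members, and no result here rests on it. Read totals were searched in each library, and transcript lengths over the libraries after cutting only, that turn FPKM into whole reads within 0.01 reads. All 60197 transcripts searched gave a length, and 0 of 2000 with randomly shifted values did. Smaller totals with proportionally longer transcripts match equally well, so totals, reads and lengths rest on taking the larger total. Read numbers cover counting error only. Members, lists and tests were chosen with earlier results of these data known. Loci named were drawn from the 12 highest at 2 h, the 10 of widest range and those at the threshold. They were also drawn from those highest at 0 h and from runs of at least 3 neighbours. Not all of these are named, and values are given in full where a result turns on them. Some other loci were named after their values were seen. Gene lists and promoter motifs were planned and not analysed here, because no annotation was used.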

Additional observations from a re-analysis of the deposited data

How the results depend on the processing

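The number of loci that meet the rule depends on the pseudocount: 423 did with 0.1 in place of 1, all 187 among them, and 285 with a minimum range of 3. It was 125 with a minimum range of 4, 205 with quantile normalization, of which 176 were among the 187, and 181 and 216 in 1 replicate of each time point alone. At 0.5 h against 0 h, lower members numbered 15 with quantile normalization in place of 9. With only loci of 1 listed transcript, a set of 131 members by construction, lower members at 96 h against 0 h numbered 30 in place of 52, and calls numbered 83 in place of 127 for 2 h against 1 h, 34 in place of 53 for 24 h against 12 h and 25 in place of 39 for 48 h against 24 h. With 1 library left out, the lone library of its time point being assumed to vary like the others, counts ranged as follows: higher members 116 to 122 and lower 8 to 11 at 0.5 h against 0 h, higher 53 to 66 and lower 46 to 58 at 96 h against 0 h. Calls ranged from 30 to 43 for 24 h against 12 h and from 20 to 23 for 48 h against 24 h. The 96 h log2 fold change of Potri.004G102500 was -0.70 without 0 h replicate 1 and turned to 0.094 without 0 h replicate 2. With limma-voom on recovered reads, chosen after seeing the data, higher and lower members numbered 124 and 10 for 0.5 h, and 57 and 49 for 96 h, against 0 h. Whether replicate numbers pair the libraries is not settled. Of 36 pairs of time points, 3 had a correlation over 0.1 of the differences between replicates, with a span from -0.197 to 0.21. Weak correlations cannot show that the libraries are unpaired. With the replicate number as a block, higher and lower members numbered 127 and 9 for 0.5 h, and 65 and 51 for 96 h, against 0 h. Depth limits the lowest levels: in 2 h replicate 1, with 29313929 reads, 1 read in a 2 kb transcript is worth 0.0171 FPKM.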
